A study of Mus musculus with 8 samples.

Results

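The glutathione and peroxide defence genes were the 56 protein coding genes, of 55933 genes in the table, whose symbols belong to the glutathione S-transferases (Gst and Mgst), glutathione peroxidases (Gpx), peroxiredoxins (Prdx), thioredoxins and their reductases (Txn, Txnrd) or superoxide dismutases (Sod), together with Gclc, Gclm, Gss, Gsr, Cat, Nqo1, Hmox1, Nfe2l2 and Keap1. The rule takes them by gene name alone. Their RNA levels came from RNA-seq of epithelial cells from the mammary glands of 8 pregnant C57BL/6 females (day 14.5), 4 of them control and 4 cKO, and each mouse gave 1 library. The cKO mice were K14-rtTA;teto-Cre;Bmpr1a fl/fl, in which doxycycline in the drinking water switches on Cre in cells with an active keratin 14 promoter, and Bmpr1a, a type I receptor for bone morphogenetic proteins, is the target. The controls are called WT in the sample names and littermates in the methods, and neither says which transgenes they carried, whether they drank doxycycline or which mice shared a litter. The cells came from glands digested with collagenase and hyaluronidase and freed of red blood cells, without a sort, so Cre was driven in only part of the cells measured.

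Glutathione is a tripeptide made from glutamate, cysteine and glycine by glutamate-cysteine ligase (a catalytic subunit, Gclc, and a modifier subunit, Gclm) and glutathione synthetase (Gss), and glutathione reductase (Gsr) returns it to its reduced form. Glutathione peroxidases spend it to reduce peroxides, glutathione S-transferases couple it to electrophiles, and the peroxiredoxins and thioredoxins form a parallel route for hydrogen peroxide. Many of these genes are transcribed by NRF2 (Nfe2l2), which KEAP1 (Keap1) holds in the cytoplasm and marks for degradation until oxidants or electrophiles release it. NRF2 binds antioxidant response elements together with small MAF proteins. In the mammary gland of pregnancy the alveolar cells prepare for milk synthesis, with a high flux through lipid synthesis and through mitochondria, which are a source of oxidants.

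The 4 promoter sequences shown here belong to members that passed a threshold in the comparison of cKO with control. They are the 250 bases before a RefSeq transcript start (GRCm38.p6), read 5′ to 3′ on the strand of the gene, and the capitals mark the core of the antioxidant response element (TGACNNNGC, or GCNNNGTCA where it lies on the other strand).
Gclm, chr3:122245307-122245556, plus strand: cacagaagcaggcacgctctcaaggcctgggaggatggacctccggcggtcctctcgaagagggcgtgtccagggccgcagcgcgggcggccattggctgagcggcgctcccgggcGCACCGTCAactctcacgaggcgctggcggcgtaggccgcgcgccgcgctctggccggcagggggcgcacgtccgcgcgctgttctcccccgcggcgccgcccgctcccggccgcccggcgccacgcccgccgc
Txnrd1, chr10:82858956-82859205, plus strand: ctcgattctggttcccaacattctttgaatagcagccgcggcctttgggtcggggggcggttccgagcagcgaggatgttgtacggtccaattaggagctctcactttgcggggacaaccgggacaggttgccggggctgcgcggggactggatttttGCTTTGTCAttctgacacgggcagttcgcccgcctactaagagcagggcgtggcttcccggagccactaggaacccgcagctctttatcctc
Mgst1, chr6:138140277-138140526, plus strand: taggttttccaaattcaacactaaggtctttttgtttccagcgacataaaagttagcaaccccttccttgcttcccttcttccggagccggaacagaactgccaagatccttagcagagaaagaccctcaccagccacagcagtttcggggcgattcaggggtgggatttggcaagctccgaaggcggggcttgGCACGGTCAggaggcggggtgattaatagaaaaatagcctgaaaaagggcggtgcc
Gpx2, chr12:76795555-76795804, minus strand: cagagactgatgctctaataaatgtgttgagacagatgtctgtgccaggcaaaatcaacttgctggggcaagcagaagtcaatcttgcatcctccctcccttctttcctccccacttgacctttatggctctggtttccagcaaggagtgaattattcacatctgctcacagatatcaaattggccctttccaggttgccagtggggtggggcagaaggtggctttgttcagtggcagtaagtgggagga
The match begins 134 bases before the start in Gclm, 92 bases before it in 1 of the 3 windows of Txnrd1, and 56 bases before it in 1 of the 2 windows of Mgst1, in each case on the strand opposite to the gene. The Gpx2 window holds no match. Of the 13 members with an unadjusted p under 0.05 and a RefSeq window, these 3 had a match and the other 10, Gpx2, Cat, Gpx3, Gstm1, Gstt3, Gstz1, Keap1, Nqo1, Prdx3 and Sod2, had none. Over windows that also take in the first 50 bases of the transcript, 9 of the 49 members with a RefSeq window had a match (18.4%), against 14.0% of the 27025 genes with a window. The other 6 were Gsta3, Gstm5, Gstm7, Nfe2l2, Prdx1 and Sod1, and in Prdx1 the match overlaps a TGANTCA motif. A match of these letters is a description of the window and was not measured as a binding site. Windows were not used here for Gclc, Gsr, Gsta4, Gstt2, Hmox1, Prdx6 and Sod3.

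Each library held between 16123108 and 19896988 reads on genes. The epithelial identity of the cells was read from fixed marker lists in FPKM (fragments per kilobase of gene model and library size), a level per length that allows genes to be compared. Summed over each list, 4 luminal keratin and adhesion genes stood at 3730 to 4928 FPKM and 6 myoepithelial genes at 1413 to 2058 FPKM across the 8 libraries. The targeted gene itself, Bmpr1a, stood at 10.6, 11.7, 8.74 and 9.52 FPKM in the controls and 12.01, 12.03, 10.2 and 10.4 FPKM in the cKO libraries, so it was not lower in the libraries labelled cKO (exact two-sided permutation test, p = 0.257). The value covers the whole gene and all cells, not the floxed part alone, and the directions given here therefore rest on the sample labels.

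Of the 56 members, 45 had a mean of at least 0.5 FPKM and were tested. Of all members, 7 stood at a mean of at least 100 FPKM, namely Hmox1, Gpx1, Gpx4, Txn1, Prdx1, Mgst1 and Gpx3, and 27 at a mean of at least 10 FPKM. Hmox1, heme oxygenase 1, which breaks down heme and yields iron, biliverdin and carbon monoxide, was the most abundant member and ranked 53 among all protein coding genes by mean FPKM. It made up 24.0% to 32.0% of the FPKM summed over all members in a library. These are levels in cells after enzymatic digestion of the gland, and the part of the digestion in them was not tested. The cytosolic and mitochondrial glutathione S-transferases, the group with the most genes (22), made up 4.81% of that sum, while the 8 glutathione peroxidases made up 23.7% and the 6 peroxiredoxins 15.3%. The sum over all 56 members was 2475 ± 222 FPKM (SD, n = 4) in the controls and 2357 ± 165 FPKM (SD, n = 4) in the cKO mice, with overlapping groups. The other 11 members fell under the filter. Gstp3, Gpx5 and Gpx6 had no read in any library, and Gsta1, Gsta3, Gstm3, Gstm6, Gsto2, Gstp2, Gstt4 and Mgst2 had at most 61 reads in a library. Among these, Gsta3 differed most in mean, 0.303 ± 0.0635 FPKM in the controls and 0.634 ± 0.192 FPKM in the cKO mice (SD, n = 4), with overlapping groups (exact two-sided permutation test, p = 0.0571, where 4 against 4 libraries allow no p under 0.0286).

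**Figure D1:**
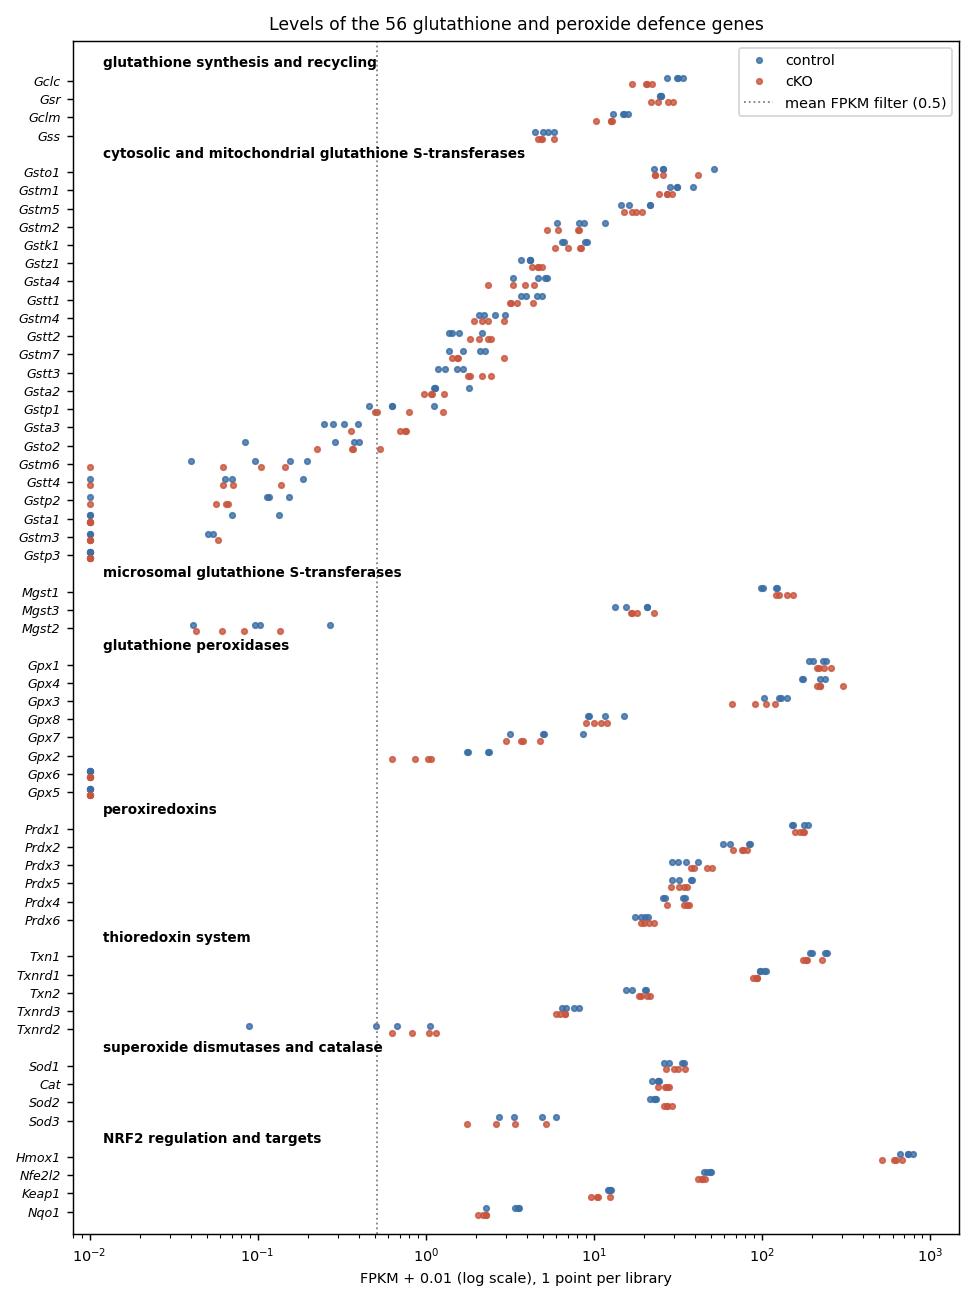
Levels of the 56 members, with FPKM plus 0.01 on a log axis and 1 point per library (4 control, 4 cKO), grouped by role. Hmox1 lies farthest to the right in every library, and Gclc, Gclm, Gpx2 and Txnrd1 are the members whose cKO points all lie to the left of the control points among those above the dotted filter line at a mean of 0.5 FPKM.

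Of the 45 members, 2 passed the test at an adjusted p under 0.05 (limma on log2(FPKM + 1), Benjamini-Hochberg over 15143 genes), Gclc and Gpx2, and both fell in the cKO mice. The share called among all genes tested was 0.892%, made up of 0.588% higher and 0.304% lower in cKO, against 0 members higher and 2 lower. At an unadjusted p under 0.05, 16 of the 45 members were called (35.6%), where the background is 16.4%. These were 7 with a higher mean in cKO (background 8.85%) and 9 with a lower mean (background 7.53%). The split between directions depended on the scaling: in TPM (FPKM rescaled to the same sum in each library) 5 members were higher and 13 lower, while over all genes the split moved from 1340 higher and 1140 lower to 788 higher and 1656 lower. The groups did not overlap for 7 of the 45 members (15.6%, background 10.7%), of which Gstz1, Gstt3 and Sod2 had all cKO libraries above all controls (background 6.1%) and Gclc, Gclm, Gpx2 and Txnrd1 had all cKO libraries below (background 4.6%). The median log2 fold change was -0.06 over the members tested and 0.00072 over all genes tested. Of the 45 members 29 (64.4%) had a log2 fold change within 0.25 of 0, against 82.0% of all genes tested. The log2(FPKM + 1) scale draws low genes towards 0, and the members were not matched to the background by level. The unadjusted count depended on single libraries: it was 7 without cKO 4 (15.6% of members, 13.6% of all genes), 8 without cKO 3 or control 4, and 10 without control 3.

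**Figure D2:**
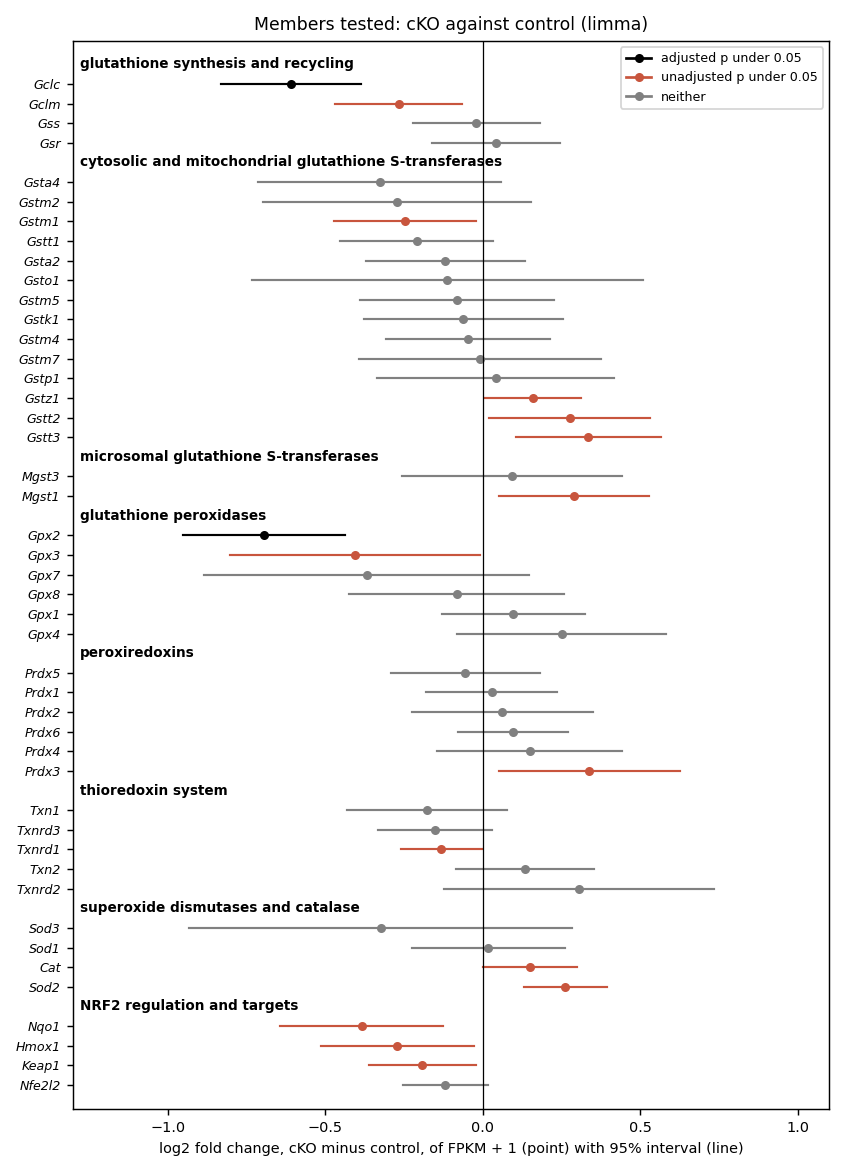
Log2 fold change of FPKM + 1, cKO minus control, for the 45 members tested (point) with its 95% interval (line), by role, from limma on 4 control and 4 cKO libraries. Black marks an adjusted p under 0.05 (Gclc at -0.61 and Gpx2 at -0.70), red an unadjusted p under 0.05, and grey the remaining members.

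Glutathione synthesis. Gclc, the catalytic subunit of the rate-limiting ligase (ENSMUSG00000032350, chr9:77754535-77794485, GRCm38), stood at 34.2, 31.8, 31.2 and 27.3 FPKM in control 1 to 4 and at 20.5, 22.2, 20.8 and 16.9 FPKM in cKO 1 to 4. Every cKO library lay below every control library, and the lowest value of each group was in replicate 4. The mean fell from 31.1 ± 2.87 to 20.1 ± 2.26 FPKM (SD, n = 4), a log2 fold change of -0.61 ± 0.10 (SE, adjusted p = 0.0339). The control and cKO libraries of replicates 1 and 2, and those of replicates 3 and 4, deviated from their group means together, so each difference was also taken within these sets, and for Gclc it was -0.61 in both. No sample label defines these sets. They were read from the same expression values, so a p-value with the set as a block depends on that choice. The Gclc call did not hold when any library was left out (adjusted p 0.0568 to 0.0954), in TPM (0.0572) or with no filter on low values (0.0835). With 1 library left out its log2 fold change was -0.67 to -0.53, at an unadjusted limma p of 0.00013 to 0.00068. Calls over all genes numbered 0 to 78 in those fits, against 135 with all libraries.

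Gclm, the modifier subunit that raises the activity of Gclc (chr3:122245557-122270732), was lower in the same direction without passing the adjusted test. Its levels were 15.2, 15.0, 16.0 and 13.0 FPKM in the controls and 10.4, 12.8, 12.7 and 12.7 FPKM in the cKO libraries. The groups did not overlap, although control 4 and the upper 3 cKO libraries were close (log2 fold change -0.27 ± 0.09 SE, adjusted p = 0.188). The ratio of Gclc to Gclm FPKM was 1.95 to 2.25 in the controls and 1.33 to 1.97 in the cKO libraries, with a small overlap. The later enzymes of the cycle differed less: Gss, glutathione synthetase, had a log2 fold change of -0.02 with a 95% interval from -0.22 to 0.18, and Gsr, glutathione reductase, one of 0.04 with an interval from -0.16 to 0.25. Gsr was nearly constant in the controls, between 24.8 and 25.3 FPKM, and ranged from 22.0 to 29.6 FPKM in the cKO libraries. Exons of Gss overlap Acss2 on the other strand, and strand-specific counting is not stated.

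Glutathione peroxidases. Gpx2, a peroxidase of epithelial cells best known from the intestine and a target of NRF2 (ENSMUSG00000042808, chr12:76792333-76795554), was the other member that fell. It was a low-abundance gene, at 1.76, 2.35, 2.37 and 1.77 FPKM in the controls and 0.852, 1.07, 1.02 and 0.618 FPKM in the cKO libraries, which corresponds to 37 to 131 reads per library. All cKO values were below all control values. The mean was 2.06 ± 0.345 FPKM in the controls and 0.890 ± 0.204 FPKM in the cKO mice (SD, n = 4), a log2 fold change of -0.70 ± 0.11 (SE, adjusted p = 0.0343) on the log2(FPKM + 1) scale, which understates the difference of low genes. With a pseudocount of 0.1 the log2 fold change was -1.14, and in limma-voom on recovered reads it was -1.23. The within-set differences were -0.63 (replicates 1 and 2) and -0.76 (replicates 3 and 4). This call, too, was lost when any library was left out (adjusted p 0.0567 to 0.0947) and with no filter (0.101), and it held in TPM (0.0362). With 1 library left out the log2 fold change was -0.74 to -0.62, at an unadjusted limma p of 0.00031 to 0.00078.

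None of the abundant peroxidases passed the test. Gpx1, the general cytosolic enzyme, was at 217 ± 23.9 FPKM in the controls and 231 ± 20.3 FPKM in the cKO mice (SD, n = 4; log2 fold change 0.10, 95% interval -0.13 to 0.33). Gpx4, which reduces lipid peroxides in membranes, had means of 202 and 240 FPKM (log2 fold change 0.25, interval -0.08 to 0.58, and 0.13 to 0.33 with 1 library left out), and cKO 4 alone stood at 305 FPKM. A row for the pseudogene Gpx4-ps2 carried 63.8 to 111 FPKM, so reads may be divided between near-identical copies and the Gpx4 level is uncertain. Gpx3, the secreted plasma form, stood at 103, 127, 129 and 141 FPKM in the controls and 106, 119, 66.4 and 90.7 FPKM in the cKO libraries (log2 fold change -0.41 ± 0.18 SE, adjusted p = 0.294, and -0.24 without cKO 3). Within the first set of replicates the log2 difference was -0.02 and within the second it was -0.79, and the difference between the sets was not tested. The library with the lowest Gpx3, cKO 3, also had the lowest sums of the fibroblast, macrophage and endothelial markers. The sum of the 5 fibroblast markers was 282 to 578 FPKM in the controls and 195 to 455 FPKM in the cKO libraries, with 5 of 5 means lower in cKO and none passing an unadjusted p under 0.05, and the part of these cell types in the Gpx3 values was not tested.

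**Figure D3:**
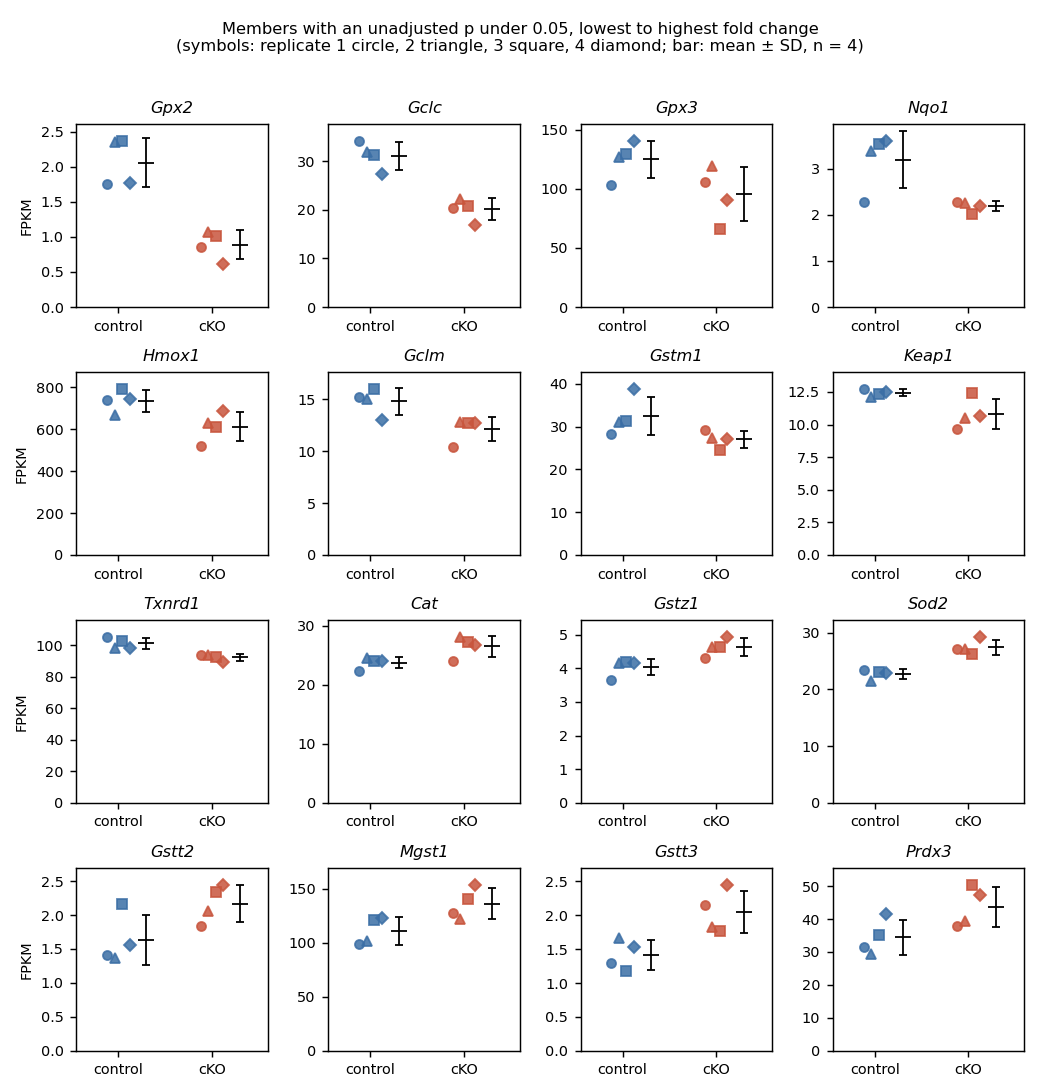
FPKM in each of the 8 libraries for the 16 members with an unadjusted p under 0.05, ordered from the lowest to the highest log2 fold change, with symbols for the replicate number and the mean ± SD (n = 4) beside each group. Gpx2 and Gclc show a clear gap between groups, while Gpx3, Nqo1, Gstm1 and Keap1 overlap in at least 1 library.

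Thioredoxin and peroxiredoxin system. Txnrd1, the cytosolic thioredoxin reductase and a known NRF2 target, was abundant and tightly spread, at 105, 98.1, 102.6 and 98.1 FPKM in the controls and 93.4, 93.4, 92.4 and 89.2 FPKM in the cKO libraries. The groups did not overlap, but the difference was small (log2 fold change -0.13 ± 0.06 SE, adjusted p = 0.291). Its substrate Txn1, thioredoxin, had means of 219 ± 26.1 and 193 ± 23.0 FPKM (SD, n = 4) with overlapping groups (log2 fold change -0.18, 95% interval -0.43 to 0.08). Prdx3, the mitochondrial peroxiredoxin, had a higher mean in cKO, at 31.6, 29.4, 35.3 and 41.6 FPKM in the controls and 37.9, 39.5, 50.5 and 47.2 FPKM in the cKO libraries. Control 4 overlapped the lower cKO libraries, and the log2 fold change of 0.34 ± 0.13 (SE, adjusted p = 0.232) was alike in both sets (0.33 and 0.34). Its adjusted p was 0.0371 with the set as a block and 0.0841 with the block by replicate number. Prdx1, the most abundant peroxiredoxin, stood at 168 ± 19.0 and 171 ± 9.09 FPKM (SD, n = 4), a log2 fold change of 0.03 with a 95% interval from -0.18 to 0.24. The other 4 peroxiredoxins had log2 fold changes between -0.06 and 0.15. Prdx2 shares exon sequence with Junb and Rnaseh2a and Prdx5 with Trmt112, all on the opposite strand.

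Superoxide and hydrogen peroxide removal. Sod2, the manganese superoxide dismutase of the mitochondrial matrix (chr17:13006846-13040063), stood at 23.3, 21.5, 23.1 and 22.9 FPKM in the controls and 27.1, 27.2, 26.2 and 29.3 FPKM in the cKO libraries. All cKO libraries lay above all controls, and the log2 fold change of 0.26 ± 0.06 (SE) was 0.27 and 0.26 within the sets, with an adjusted p of 0.0787 that did not pass. It was 0.0420 with the set as a block and 0.0830 with the block by replicate number. Cat, catalase of the peroxisome, was 23.8 ± 0.994 FPKM in the controls and 26.5 ± 1.79 FPKM in the cKO mice (SD, n = 4; log2 fold change 0.15, adjusted p = 0.304), a difference that was 0.09 with an unadjusted p of 0.271 in TPM (limma), and cKO 1, at 24.0 FPKM, lay within the control range. Sod1, the copper and zinc enzyme of the cytosol, was at 30.6 and 30.9 FPKM (log2 fold change 0.02, 95% interval -0.23 to 0.26).

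Glutathione S-transferases. Of the 22 cytosolic and mitochondrial members 14 were tested, none passed the adjusted test, and 10 had a lower and 4 a higher mean on the log2 scale. Gstm1, an abundant transferase of the mu class, was 28.4, 31.2, 31.4 and 38.9 FPKM in the controls and 29.3, 27.4, 24.5 and 27.1 FPKM in the cKO libraries, with cKO 1 inside the control range (log2 fold change -0.25, adjusted p = 0.264, and -0.16 without control 4). Its difference was -0.07 in the first set of replicates and -0.42 in the second. Among the theta class genes, which lie together on chromosome 10, Gstt3 and Gstt2 had higher means in cKO. Gstt3 was 1.29, 1.67, 1.18 and 1.53 FPKM in the controls and 2.14, 1.83, 1.77 and 2.45 FPKM in the cKO libraries, without overlap (log2 fold change 0.33 ± 0.10 SE, adjusted p = 0.157, and 0.54 in limma-voom). Gstt2 was 1.63 ± 0.371 and 2.17 ± 0.278 FPKM (SD, n = 4), with overlap (log2 fold change 0.28, adjusted p = 0.271, and 0.43 in limma-voom). Gstt1 itself had a log2 fold change of -0.21 (95% interval -0.45 to 0.03). Gstz1, which isomerises maleylacetoacetate in tyrosine breakdown, was 4.04 ± 0.252 and 4.63 ± 0.264 FPKM (SD, n = 4) without overlap (log2 fold change 0.16, adjusted p = 0.284), and its exons overlap Pomt2 on the other strand.

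The member with the highest mean among these transferases, Gsto1 of the omega class, had a wide interval. It stood at 25.7, 22.9, 51.8 and 25.9 FPKM in the controls and 23.0, 23.1, 25.7 and 42.0 FPKM in the cKO libraries, so 1 library of each group was far above the rest (log2 fold change -0.11, 95% interval -0.73 to 0.51). The highest-ranking members of the other classes, Gsta4 (log2 fold change -0.33, interval -0.71 to 0.06, and -0.19 without cKO 1), Gstk1 (-0.06, interval -0.38 to 0.25) and Gstp1 (0.04, interval -0.34 to 0.42), also had intervals that include 0. Gstp1 was low, at 12 to 31 reads per library, and is nearly identical to Gstp2, so its value is uncertain. Among the microsomal enzymes, Mgst1, which conjugates glutathione and reduces lipid peroxides in the endoplasmic reticulum and outer mitochondrial membrane, was 98.4, 102, 121 and 123 FPKM in the controls and 127, 122, 141 and 154 FPKM in the cKO libraries. Only cKO 2 reached into the control range (log2 fold change 0.29 ± 0.11 SE, adjusted p = 0.220). Both groups were higher in replicates 3 and 4, the within-set differences were 0.31 and 0.27, and its adjusted p was 0.0283 with the set as a block and 0.0676 with the block by replicate number.

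NRF2 regulation and targets. All 4 genes of this group had a lower mean in the cKO mice and none passed the adjusted test. Nqo1, the quinone reductase often used as a readout of NRF2, was 2.27, 3.38, 3.54 and 3.60 FPKM in the controls and 2.27, 2.26, 2.03 and 2.18 FPKM in the cKO libraries. Control 1 lay at the cKO level and the other controls above it (log2 fold change -0.38 ± 0.11 SE, adjusted p = 0.148, at 50 to 105 reads). Hmox1 was 739, 667, 794 and 744 FPKM in the controls and 520, 629, 611 and 687 FPKM in the cKO libraries, with control 2 and cKO 4 overlapping (log2 fold change -0.27 ± 0.11 SE, adjusted p = 0.252). Nfe2l2 itself was 47.9 ± 2.07 and 44.0 ± 1.86 FPKM (SD, n = 4; log2 fold change -0.12, 95% interval -0.25 to 0.02). Keap1, its inhibitor, was 12.4 ± 0.259 FPKM in the controls and 10.8 ± 1.156 FPKM in the cKO mice (SD, n = 4; log2 fold change -0.19, adjusted p = 0.251), and cKO 3, at 12.4 FPKM, lay within the control range. Exons of Keap1 overlap Gm16754 on the other strand, a row with at most 51 reads.

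Other genes of the pathway came from a list of 35 that act beside the members, of which 34 were tested (Cbs fell under the filter). At an adjusted p under 0.05, 1 was lower and 1 higher. Slc7a11, the cystine transporter that supplies the cysteine for Gclc (chr3:49892526-50443614), fell from 5.02, 5.08, 4.09 and 4.71 FPKM in the controls to 2.69, 2.27, 3.003 and 1.67 FPKM in the cKO libraries, without overlap (log2 fold change -0.76 ± 0.13 SE, adjusted p = 0.0378). Its difference was -0.80 and -0.72 within the sets, its adjusted p was 0.0706 with the replicate number and 0.0297 with the set as a block, and it ran from 0.0471 to 0.1104 with 1 library left out. Me1, malic enzyme, which makes NADPH for lipid synthesis and for glutathione reductase (chr9:86581371-86695953), rose from 39.7, 40.7, 40.6 and 40.4 FPKM to 52.0, 57.0, 52.8 and 53.4 FPKM (log2 fold change 0.41 ± 0.05 SE, adjusted p = 0.0266, and 0.0738 in TPM). With 1 library left out its adjusted p was 0.0369 to 0.0875, and it passed in 2 of 8 such fits (without cKO 1 or cKO 3). The control libraries lay within about 1 FPKM of each other. Slc3a2, the partner chain of Slc7a11 that it shares with other amino acid transporters, had a log2 fold change of -0.23 (95% interval -0.57 to 0.11).

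At an unadjusted p under 0.05, 10 of the 34 were called (29.4%, where the background is 16.4%), 5 higher and 5 lower, and the median log2 fold change of the list was -0.06. Besides Slc7a11, those lower were Srxn1, sulfiredoxin, which repairs overoxidised peroxiredoxins (114 ± 23.8 and 73.9 ± 18.6 FPKM), Sesn2, a stress-induced sestrin (36.3 ± 4.55 and 23.6 ± 9.44 FPKM), Ggt1, which breaks down extracellular glutathione (6.12 ± 0.814 and 4.76 ± 0.549 FPKM), and Ephx1, the microsomal epoxide hydrolase (29.2 ± 1.27 and 25.5 ± 1.98 FPKM; SD, n = 4 in each group). Besides Me1, those higher were Fth1, the ferritin heavy chain, which stores iron (472 ± 53.1 and 759 ± 174 FPKM), Txnip, which binds and inhibits thioredoxin (110 ± 2.92 and 159 ± 23.9 FPKM), Oplah, which returns oxoproline to glutamate (5.94 ± 0.619 and 8.03 ± 1.34 FPKM), and Chac2, which degrades cytosolic glutathione (3.18 ± 0.159 and 3.92 ± 0.610 FPKM; SD, n = 4 in each group). None of these 8 passed the adjusted test, the nearest being Txnip (adjusted p = 0.0729) and Fth1 (0.0861). With the set as a block Fth1 (0.0379) and Oplah (0.0351) passed, and in limma-voom on recovered reads Fth1 (0.0428) and Txnip (0.0416) did. The groups of 6 of the 34 did not overlap (17.65%, where the background is 10.7%), Me1, Fth1, Txnip and Oplah with cKO above and Slc7a11 and Ephx1 with cKO below.

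**Figure D4:**
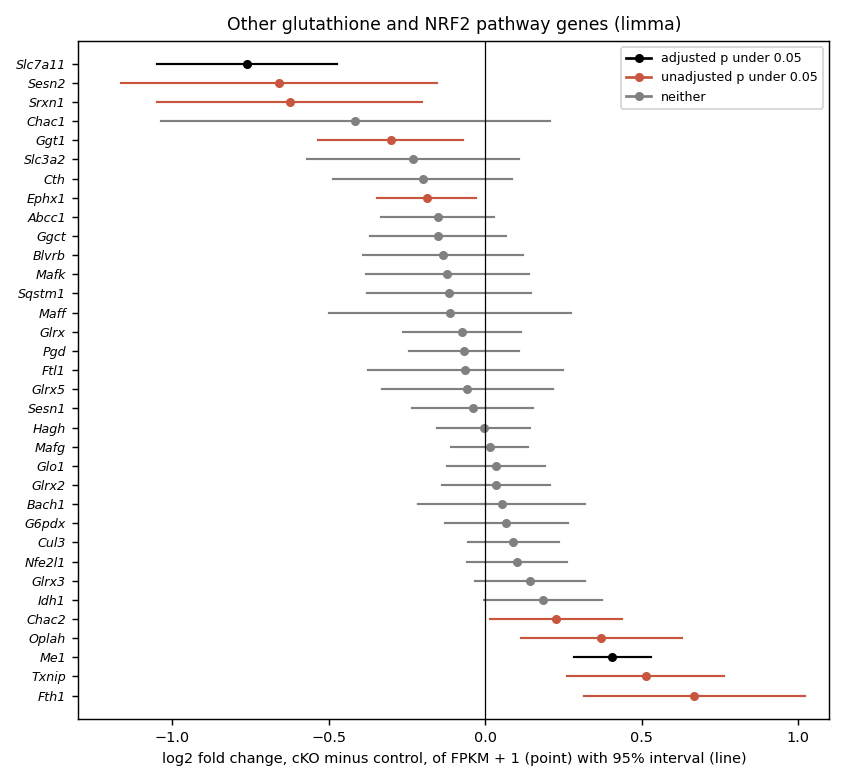
Log2 fold change of FPKM + 1, cKO minus control, with its 95% interval, for the 34 tested genes of the list of other glutathione and NRF2 pathway genes, sorted by value, from limma on 4 control and 4 cKO libraries. Slc7a11 (-0.76) at the top and Me1 (0.41) near the bottom are in black, for an adjusted p under 0.05.

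Markers of some cell types moved with the groups as well. Only the secretory alveolar and adipocyte lists held a gene that passed the adjusted test, and the background at an unadjusted p under 0.05 was 16.4%. The 4 luminal markers had sums of 3888 to 4862 FPKM in the controls and 3730 to 4928 FPKM in the cKO libraries, with none at an unadjusted p under 0.05. In unsorted cells, fewer cells of a type and less RNA per cell cannot be told apart. Of 5 secretory alveolar markers, 5 had a higher mean in cKO and 4 an unadjusted p under 0.05 (Csn2, Csn1s1, Wap and Elf5), with a sum of 2062 to 2759 FPKM in the controls and 4035 to 6620 FPKM in the cKO libraries. Wap (adjusted p = 0.0340) and Csn2 (0.0461) passed the adjusted test, and the other 3 did not. Of 5 macrophage markers, 5 had a lower mean and 3 an unadjusted p under 0.05, with a sum of 226 to 312 FPKM in the controls and 139 to 231 FPKM in the cKO libraries. Hmox1 is also known as a gene of macrophages, and the part of these cells in its values was not tested. The 4 endothelial markers all had a lower mean, with a sum of 63.4 to 74.5 FPKM in the controls and 46.0 to 70.7 FPKM in the cKO libraries. The 5 red blood cell markers tested had sums of 22.5 to 30.0 FPKM in the controls and 14.5 to 28.0 FPKM in the cKO libraries, with a lower mean in 4 and an unadjusted p under 0.05 in 2. The 4 hormone-sensing luminal markers had sums of 11.1 to 12.3 and 9.34 to 11.4 FPKM, with none at an unadjusted p under 0.05. The 3 lymphocyte markers tested had sums of 1.98 to 21.4 FPKM in the controls, highest in controls 1 and 3, and 1.00 to 1.77 FPKM in the cKO libraries. Of 5 adipocyte markers 3 were tested, and all 3 had a higher mean in cKO. Cidec, a lipid droplet protein, rose from 0.386 ± 0.0668 to 1.56 ± 0.549 FPKM (SD, n = 4; log2 fold change 0.86, adjusted p = 0.0378) without overlap, and Adipoq, adiponectin, had means of 0.303 and 1.25 FPKM (log2 fold change 0.71, adjusted p = 0.245). The sum of the 3 was 77.4 to 119 FPKM in the controls and 98.2 to 130 FPKM in the cKO libraries, almost all from Fabp4, with Plin1 and Lep near 0. Among 6 myoepithelial markers 3 had a lower and 3 a higher mean, and Krt14 and Trp63 were lower at an unadjusted p under 0.05 while Oxtr was higher. The part of these cell types in the values of Gclc, Gpx2 and the other members was not tested.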

How the data were processed

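Libraries of 4 control and 4 cKO mice had been aligned by the authors to GRCm38, and the processing notes name featureCounts 1.5.0-p3, StringTie 1.3.3b and the build mm9. The deposited values are FPKM per gene, and 99.68% of the 55394 identifiers found in GENCODE vM21 have its GRCm38 coordinates. The FPKM of each library were whole multiples of 1 read for 100% of values (tolerance 0.01 read), so reads were recovered, and their scaling already includes size factors.

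The test, on FPKM plus 1 in log2, was limma 3.58.1 under R 4.3.3 (moderated by empirical Bayes, with a trend on mean level, and adjusted by Benjamini-Hochberg) over 15143 genes, those whose mean over all libraries reached 0.5 FPKM. Other settings were a pseudocount of 0.1, no filter, TPM, blocks, limma-voom on recovered reads and leaving out each library. The fit was also run on simulated reads drawn independently for each library, which cannot show how it behaves where sets of libraries deviate together. Named are members with an unadjusted p under 0.05 or without overlap, the most abundant of each class, the 9 genes of the rule listed by full symbol, and pathway genes with an unadjusted p under 0.05. Named after their values were seen are Gpx4, Gsta2, Gsta3, Gstm7, Prdx2, Prdx5, Gpx8, Gstm4, Mgst3, Slc3a2 and the genes under the filter. Members, lists and thresholds were chosen with earlier results of these data known. Promoter sequences are RefSeq (GRCm38.p6). Python 3.11.15 and pandas 2.3.3 were used. The p-values measure the spread between mice. Of the marker genes, 1 is not reported here.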

Additional observations from a re-analysis of the deposited data

Results flagged for a closer look

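In 8 of the 90 groups of 4 libraries (45 members in 2 groups), 1 library lay apart from the other 3 by more than Dixon's 95% critical value, where chance gives about 4.5. Gsto1 stood at 51.8 FPKM in control 3 against 22.9 to 25.9 in the other controls, and at 42.0 FPKM in cKO 4 against 23.0 to 25.7. In cKO 4, Gpx4 was 304.5 FPKM against 212.6 to 222.1, and Gstm7 was 2.93 FPKM against 1.42 to 1.55. In control 1, Nqo1 was 2.27 FPKM against 3.38 to 3.60, and Gstz1 was 3.66 FPKM against 4.16 to 4.18. Gsta2 was 1.81 FPKM in control 4 against 1.12 to 1.13, at 40 reads. Gclm was 10.4 FPKM in cKO 1 against 12.7 to 12.8.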

How the results depend on the processing

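The 2 adjusted calls among members (Gclc and Gpx2) held with a pseudocount of 0.1, with the replicate number as a block and in limma-voom on recovered reads (which called 252 genes in all, against 135). There were 0 with no filter on low values (31373 genes tested, 10 called in all), 1 in TPM (Gpx2), 5 with the sets of replicates 1 and 2 against 3 and 4 as a block (442 called in all), and 0 to 0 with 1 library left out, where all-gene calls were 0 to 78. With 1 library left out, 7 to 14 members had an unadjusted p under 0.05 (15.6% to 31.1%, against 13.5% to 16.6% of all genes, main count 16), and 8 to 12 had groups that did not overlap (17.8% to 26.7%, against 13.7% to 16.6% of all genes, main count 7), where 1 library fewer makes separation easier. Of the 34 pathway genes, adjusted calls numbered 1 with no filter, 1 in TPM, 1 with the replicate block, 4 with the set block, 4 in limma-voom and 0 to 3 with 1 library left out (main count 2). Log2 fold changes of named members that changed sign were at most 0.11 in size in the reported fit and passed no adjusted test: in TPM Gsr (-0.018), Prdx1 (-0.033) and Sod1 (-0.042), and over the fits with 1 library left out Gsto1 (-0.31 to 0.15), Gstk1 (-0.14 to 0.030), Gstp1 (-0.087 to 0.15), Gsr (-0.023 to 0.11), Gss (-0.077 to 0.029), Prdx1 (-0.019 to 0.089) and Sod1 (-0.049 to 0.078). With 1 library left out, 6 other members also changed sign (Gstm4, Gstm7, Gpx8, Mgst3, Prdx2 and Prdx5). Of 392 values of named members under other settings, 354 kept direction and side of the threshold. Most named members did not pass the adjusted threshold in the reported fit and so had no call to lose. The 2 that passed lost their calls in every fit with 1 library left out. TPM shifted the median over genes by -0.05. The cause of each change was not tested. Deviations from the group means correlated at 0.0797 to 0.137 for same-numbered libraries of the groups (3 of 4 above 0.1), at 0.0873 to 0.178 for other libraries of the same set and at -0.21 to -0.072 across sets, so the sets deviated together and the numbers were not taken to pair mice. The replicate block called 19 members at an unadjusted p (42.2%, against 20.6% of all genes). Gpx2 rested on 37 to 131 reads per library and Gstp1 on 12 to 31.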
